A study of Mus musculus with 7 samples.

Results

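Lymphocytes reach and stay in the wall of the small intestine through surface integrins and chemokine receptors that meet ligands made by epithelium and stroma. The 10 genes described here belong to that system: the integrin chains Itgae, Itgb7 and Itga4, the chemokine receptors Ccr9 and Cxcr6, the chemokine Ccl5, and the ligands Ccl25, Cxcl16, Cxcl9 and Cxcl10. They were chosen by name, and a probe set, the group of array probes that reads out 1 transcript, was used only where the platform annotation gave it to a single gene. All 10 genes had such probe sets, 23 in number, and all 10 were among the 13644 genes tested of 18193 with a probe set of their own.

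Expression was read from terminal ileum of male C57BL6J mice at the age of 8 weeks. The 4 mice called penicillin mice here got low-dose penicillin, 6.7 mg/L, starting at birth, whereas the 3 control mice got no antibiotic. Mice of both groups left their mothers for chow at 4 weeks, and from 6 weeks their food was a high fat diet that drew 45% of its calories from fat. Each array is 1 mouse, per the labels. The labels used here name no litter or cage, so effects of litter or cage and of penicillin cannot be told apart. Fabp6, the bile acid carrier that marks ileal enterocytes, was at log2 14.3 to 14.6 over the 7 mice. The deposited log2 values spanned 2.50 to 14.7, array medians lay between 5.43 and 5.45, and arrays correlated across probe sets with r from 0.992 to 0.998. Control replicate 3 stood apart on the first principal component, at -30.0 against -2.90 to 17.6 in the other arrays. Its level of Car1, a carbonic anhydrase abundant in colon, was log2 14.1, against 5.11 to 10.8 in the other mice.

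The integrin chain encoded by Itgae pairs with the beta7 chain of Itgb7 and binds E-cadherin, the product of Cdh1, which holds intraepithelial lymphocytes between enterocytes. The alpha4 chain of Itga4 pairs with the same beta7 chain and binds MAdCAM-1, the product of Madcam1, on the vessels of the gut wall. Small intestinal epithelium secretes Ccl25, which draws lymphocytes that carry Ccr9. Cxcl16 is the ligand of Cxcr6, while Cxcl9 and Cxcl10 are interferon gamma induced ligands of Cxcr3. Ccl5 is a chemokine that activated T cells and natural killer cells make themselves.

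In penicillin mice Itgae fell 1.56-fold and Ccl5 fell 2.53-fold, the 2 members that passed the test over all genes. Each of the 5 integrin and receptor genes had a lower value in every penicillin mouse than in every control mouse, with a median change of -0.47 on the log2 scale, but only Itgae of the 5 passed. The 4 genes grouped here as ligands of epithelium and stroma had a median change of -0.01, but their changes were unlike. Cxcl9, which macrophages and dendritic cells also make, was lower by 0.98 without overlap, and Cxcl10 was lower by 0.13. Ccl25 and Cxcl16 were higher by 0.15 and 0.12, and none of these 4 passed. The median over all 13644 genes was -0.01. By mean level, Cxcr6, Itgb7, Itga4, Ccr9 and Itgae stood at percentiles 14.3, 20.5, 25.9, 31.5 and 39.2 of the genes tested. Cxcl10, Cxcl9, Cxcl16 and Ccl25 stood at 18.6, 37.6, 56.5 and 98.3. The part of level in the unlike changes was not tested. In bulk tissue, fewer cells that carry these genes and less RNA per cell cannot be told apart, and the cells that gave the signal were not identified.

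**Figure D1:**
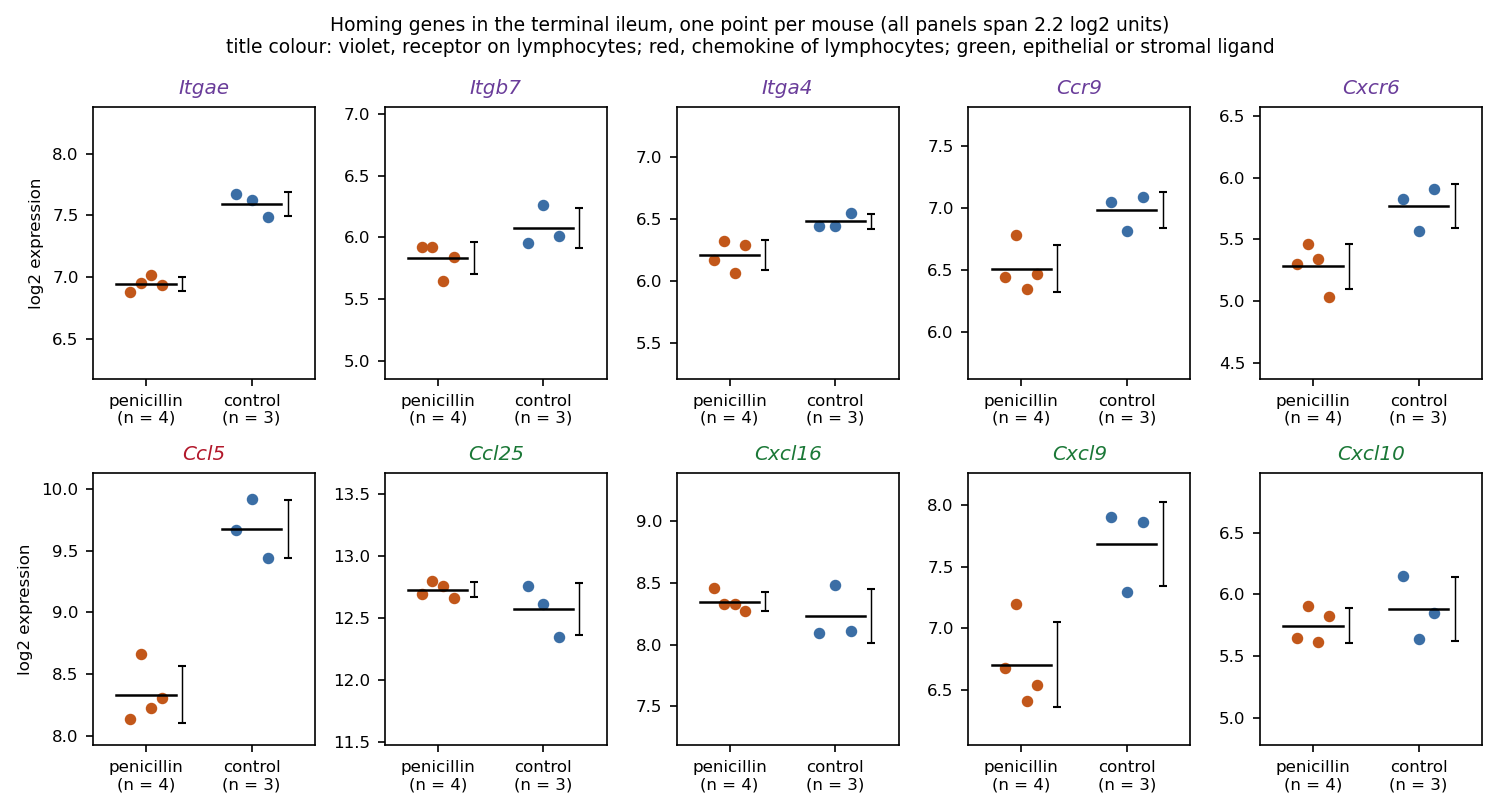
Log2 expression of the 10 homing genes, 1 point per mouse, with penicillin mice (n = 4) left of control mice (n = 3). Horizontal bars are group means and the error bars beside them are SD. Every penicillin mouse lies below every control mouse for Itgae, Itgb7, Itga4, Ccr9, Cxcr6, Ccl5 and Cxcl9, and the groups overlap for Ccl25, Cxcl16 and Cxcl10.

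Of the 10 members, 2 were lower and 0 higher at an adjusted p under 0.05 in limma, where 0.088% of all genes were lower and 0.00733% were higher. The groups did not overlap in 7 members, all of them lower in penicillin mice. Over all genes 6.05% were lower without overlap and 4.29% were higher without overlap. At an unadjusted p under 0.05 in limma there were 7 members, all lower, beside 6.35% of all genes lower and 4.37% higher at that level. The members were chosen with earlier results of these arrays known, so these counts describe them and are not independent evidence.

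Itgae, read out by probe set 1447541_s_at, was at log2 6.88, 6.95, 7.02 and 6.94 in penicillin mice, against 7.67, 7.62 and 7.49 in control mice. The groups were separated by a gap of 0.47, wider than the range within either group. The change was -0.65 ± 0.063 (SE, adjusted p = 0.0232 in limma), at rank 5 among the 13644 genes by p. The second probe set of Itgae, 1449216_at, gave a change of -0.65 ± 0.10 (SE), also without overlap. Fitted with all 34945 probe sets of single genes in limma, where 0.0458% of probe sets passed, the first had an adjusted p of 0.0261 and the second one of 0.130. The adjusted p of Itgae was 0.125, 0.0562, 0.0622 and 0.119 without penicillin replicates 1, 2, 3 and 4, and 0.156 and 0.117 without control replicates 1 and 2. It stayed under the threshold only without control replicate 3, at 0.0356, while its change stayed between -0.70 and -0.61 in these 7 fits.

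Itgb7, the beta7 chain that both alpha chains need, differed less than Itgae. Its values were log2 5.92, 5.92, 5.65 and 5.84 in penicillin mice, against 5.96, 6.26 and 6.01 in control mice. The groups did not overlap, but the gap between the highest penicillin mouse and the lowest control mouse was only 0.037. The change was -0.24 ± 0.099 (SE, adjusted p = 0.450 in limma), and it was -0.15 without control replicate 2, the highest mouse. Itga4, the alpha4 chain, was at log2 6.17, 6.32, 6.06 and 6.29 in penicillin mice and at 6.44, 6.45 and 6.55 in control mice. Its change was -0.27 ± 0.076 (SE, adjusted p = 0.318 in limma), with a gap of 0.12 between the groups. The next probe set of Itga4, 1456498_at, at a mean of log2 4.89, gave -0.23 ± 0.10 (SE) with overlapping groups. Among the 5 probe sets of Itga4 4 had lower values in penicillin mice and 1 had higher values. The one that was higher, by 0.14, had a mean of log2 3.37, under the filter level of log2 4.59 below which genes were not tested.

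Ccr9, the receptor for Ccl25, was at log2 6.44, 6.78, 6.35 and 6.47 in penicillin mice, against 7.05, 6.82 and 7.08 in control mice. Penicillin replicate 2 came within 0.035 of control replicate 2, and the other mice of the groups were further apart. The change was -0.47 ± 0.12 (SE, adjusted p = 0.259 in limma). That value rests on probe set 1427419_x_at, whose suffix marks probes that the manufacturer expected to share sequence with other transcripts. The next probe set of Ccr9, 1421920_a_at, gave -0.37 ± 0.16 (SE) with overlapping groups. The other 3 lay under the filter level, with changes between -0.02 and -1.6e-04.

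Cxcr6, which marks tissue-resident T cells and innate lymphoid cells, was at log2 5.30, 5.46, 5.34 and 5.03 in penicillin mice. In control mice it was at log2 5.83, 5.57 and 5.91. No penicillin mouse reached the lowest control mouse, and the gap was 0.11. The change was -0.49 ± 0.12 (SE, adjusted p = 0.265 in limma), and the second probe set of Cxcr6 gave -0.50 ± 0.13 (SE), also without overlap. Ccr9 and Cxcr6 lie close together in the RefSeq gene table of GRCm38.p6, with Fyco1 between them.

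Ccl5, which has a single probe set, 1418126_at, showed the largest change of the 10 members. It was at log2 8.14, 8.66, 8.22 and 8.31 in penicillin mice, against 9.66, 9.92 and 9.44 in control mice. The gap between the groups, 0.78, exceeded the range within each of them, and penicillin replicate 2 was the highest of its group. The change was -1.34 ± 0.15 (SE, 2.53-fold lower), with an adjusted p of 0.0407 in limma and rank 9 among all genes. The adjusted p was 0.142, 0.128 and 0.161 without penicillin replicates 1, 3 and 4. It was 0.211, 0.117 and 0.0546 without control replicates 1, 2 and 3, and 0.0183 without penicillin replicate 2. Over these 7 fits the change of Ccl5 stayed between -1.46 and -1.22.

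**Figure D2:**
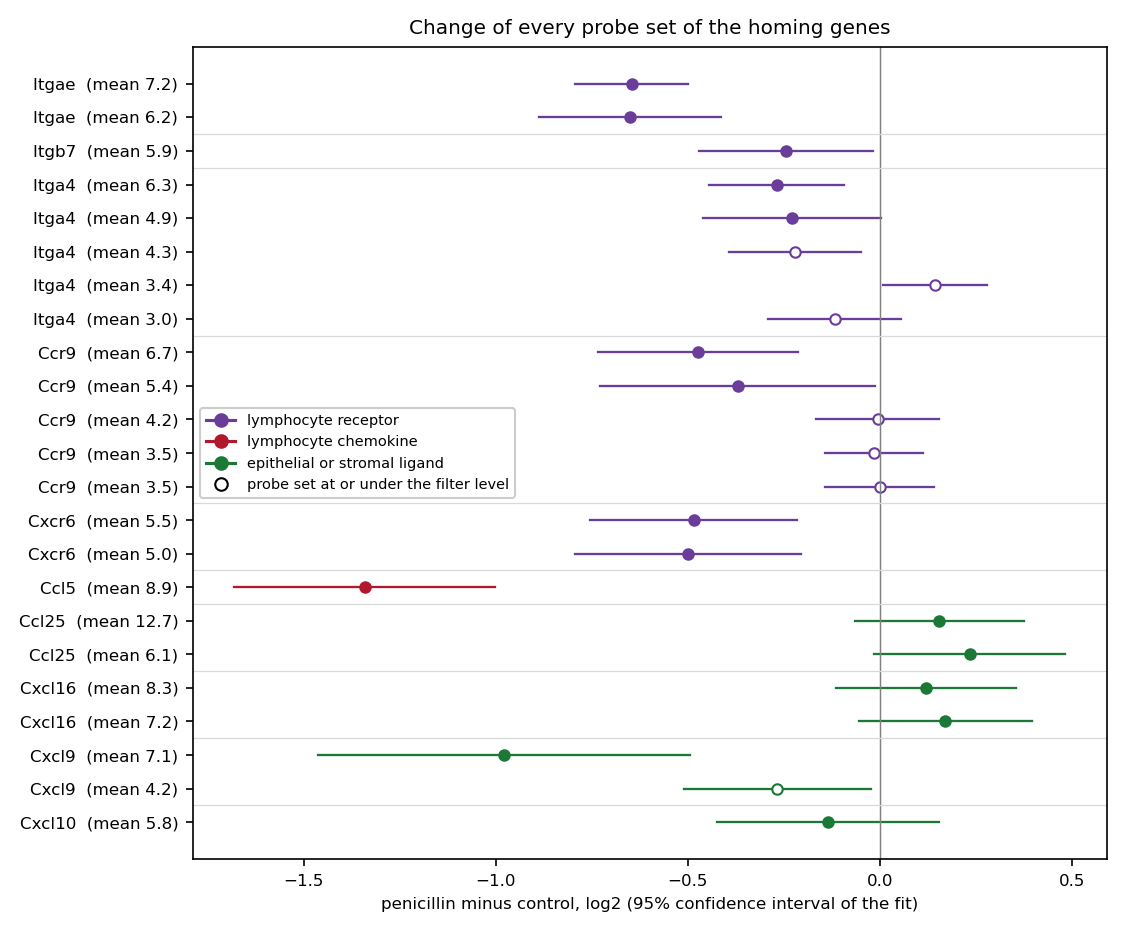
Change of each of the 23 probe sets of the 10 genes, penicillin minus control on the log2 scale (points), with the 95% confidence interval of the limma fit (lines); the mean level over the 7 mice stands beside each gene name. Filled points are above the filter level and open points at or under it. Both probe sets of Itgae lie at -0.65, Ccl5 lies at -1.34, and both probe sets of Ccl25 and of Cxcl16 lie above 0.

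Ccl25, the chemokine that small intestinal epithelium secretes to draw Ccr9-bearing lymphocytes, was at log2 12.7, 12.8, 12.8 and 12.7 in penicillin mice, against 12.8, 12.6 and 12.3 in control mice. All penicillin mice lay within or above the range of the control mice, and control replicate 3, the array with high Car1, was the lowest. The change was 0.15 ± 0.097 (SE, adjusted p = 0.565 in limma), with a 95% interval from -0.07 to 0.38, and it was 0.25 without control replicate 1 and 0.04 without control replicate 3. Epithelial markers moved with that array too: their mean there was 0.14 below the mean of all 7 mice. The part of this array in the change of Ccl25 beyond the value without it was not tested. Its second probe set, at a mean of log2 6.09, gave a change of 0.23 with overlapping groups.

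Cxcl16 exists as a membrane-bound and as a shed chemokine. It was at log2 8.46, 8.33, 8.33 and 8.27 in penicillin mice and at 8.09, 8.48 and 8.11 in control mice, so that control replicate 2 exceeded every penicillin mouse. The change was 0.12 ± 0.10 (SE, adjusted p = 0.654 in limma), with a 95% interval from -0.12 to 0.36, and the second probe set gave 0.17. The change of Cxcl16 was 0.052, 0.25 and 0.061 without control replicates 1, 2 and 3. A fall of Ccl25 or Cxcl16 as large as that of Itgae lies outside these intervals.

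Cxcl9 and Cxcl10 are neighbours in the RefSeq gene table of GRCm38.p6, with Art3 between them, and both are known as interferon gamma induced chemokines. Cxcl9 was at log2 6.68, 7.19, 6.41 and 6.54 in penicillin mice, against 7.90, 7.29 and 7.86 in control mice. Penicillin replicate 2 was 0.10 below control replicate 2, and the other mice of the groups were more than that apart. The change was -0.98 ± 0.22 (SE, 1.97-fold lower) and did not pass over all genes in limma (adjusted p = 0.201). Its second probe set, under the filter level at a mean of log2 4.22, gave -0.27.

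Cxcl10 was at log2 5.65, 5.90, 5.61 and 5.83 in penicillin mice and at 6.15, 5.64 and 5.85 in control mice. These groups overlapped, with control replicate 1 the highest and penicillin replicate 3 the lowest mouse. The change was -0.13 ± 0.13 (SE, adjusted p = 0.685 in limma; 95% interval -0.43 to 0.16) and came to 3.2e-05 without control replicate 1. Cxcl11, the other ligand of Cxcr3, is annotated as a transcribed pseudogene in this assembly of C57BL/6J and had a change of 0.26 ± 0.16 (SE). Cxcr3 itself had a change of 0.01 ± 0.081 (SE), and Ifng lay under the filter level, at a mean of log2 3.40.

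The promoter windows of Cxcl9 and Cxcl10 are shown as description only. Whether the changes of these 2 genes differed was not tested, nor was any part of their promoters in those changes. Each window runs from 250 bases before to 50 bases after the start of the gene, read 5′ to 3′ on the strand of the gene, from RefSeq on GRCm38.p6. The Cxcl9 window is chr5:92328030-92328329 and the Cxcl10 window is chr5:92348840-92349139, both on the minus strand. Capitals mark matches to a GAS motif (TTCNNNGAA), an ISRE core (GAAA, any 2 bases, GAAA) or a kB motif (GGGA, any 2 bases, TTCC), searched on both strands.

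Cxcl9: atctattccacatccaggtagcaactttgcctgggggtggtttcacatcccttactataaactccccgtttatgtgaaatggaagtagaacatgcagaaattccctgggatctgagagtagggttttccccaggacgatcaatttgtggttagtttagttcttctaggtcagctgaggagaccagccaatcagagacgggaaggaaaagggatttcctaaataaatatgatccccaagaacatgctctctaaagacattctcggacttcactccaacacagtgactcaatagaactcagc
Cxcl10: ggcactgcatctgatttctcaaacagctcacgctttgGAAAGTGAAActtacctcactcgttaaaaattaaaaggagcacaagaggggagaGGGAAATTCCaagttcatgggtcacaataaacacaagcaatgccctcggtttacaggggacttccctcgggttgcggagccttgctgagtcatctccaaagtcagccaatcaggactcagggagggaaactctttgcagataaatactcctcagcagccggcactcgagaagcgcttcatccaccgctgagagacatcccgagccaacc

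The Cxcl10 window held 1 ISRE core, starting 213 bases before the gene start, and 1 kB motif, starting 159 bases before it. The Cxcl9 window held no match to any of these motifs as written. Among 32851 promoter windows of the same length, 8.30% held the GAS motif, 3.44% the ISRE core and 1.47% the kB motif, and the motifs do not overlap in the Cxcl10 window. Windows were in the table for 7 of the 10 members, and the windows of Itga4, Itgb7, Ccr9, Cxcr6 and Ccl25 held no match. A match of letters is a description and not a binding site, and the lack of a match does not show that a site is absent.

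Whether a receptor differed from its ligand or partner was asked within each mouse, by subtracting the log2 value of one gene from that of the other and comparing these differences between the groups. Ccr9 minus Ccl25 was lower in every penicillin mouse, from -6.41 to -6.01, than in every control mouse, from -5.79 to -5.26, a difference of -0.63. Itgae minus Cdh1 was -6.01 ± 0.065 (SD, n = 4) in penicillin mice and -5.28 ± 0.090 (SD, n = 3) in control mice, a difference of -0.73 without overlap. For both pairs the two-sided exact permutation p was 0.0286, the smallest that 35 splits of the mice allow. Adjusted over the 5 pairs tested it was 0.0714, so neither passed. Itgae alone separated the groups by a gap of 0.47, while the change of Cdh1 was 0.08. The p of Itgae minus Cdh1 therefore restates the separation of Itgae. With so few splits a pair could pass only if enough other pairs also reached the smallest p, whatever its own separation.

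Cxcr6 minus Cxcl16 differed by -0.60 (exact permutation p = 0.0571, adjusted 0.0952), with control replicate 2 inside the range of the penicillin mice. Itgae minus Itgb7 differed by -0.40 (exact permutation p = 0.0857, adjusted 0.107), with penicillin replicate 3 just inside the control range. Itga4 minus Itgb7 differed by -0.02 (exact permutation p = 0.80), and its sign turned when penicillin replicate 1, control replicate 1 or control replicate 3 was left out, at 0.019, 0.018 and 0.045. With each gene's probe sets averaged, Ccr9 minus Ccl25, Itgae minus Cdh1 and Itgae minus Itgb7 had an adjusted exact permutation p of 0.0476. That value rests on how many pairs reached the smallest p. Averaging took in the Ccr9 probe sets under the filter level, and the change was then -0.17 for Ccr9 and 0.19 for Ccl25. A difference within a mouse can only show that 2 genes changed unequally and not that either stayed the same.

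**Figure D3:**
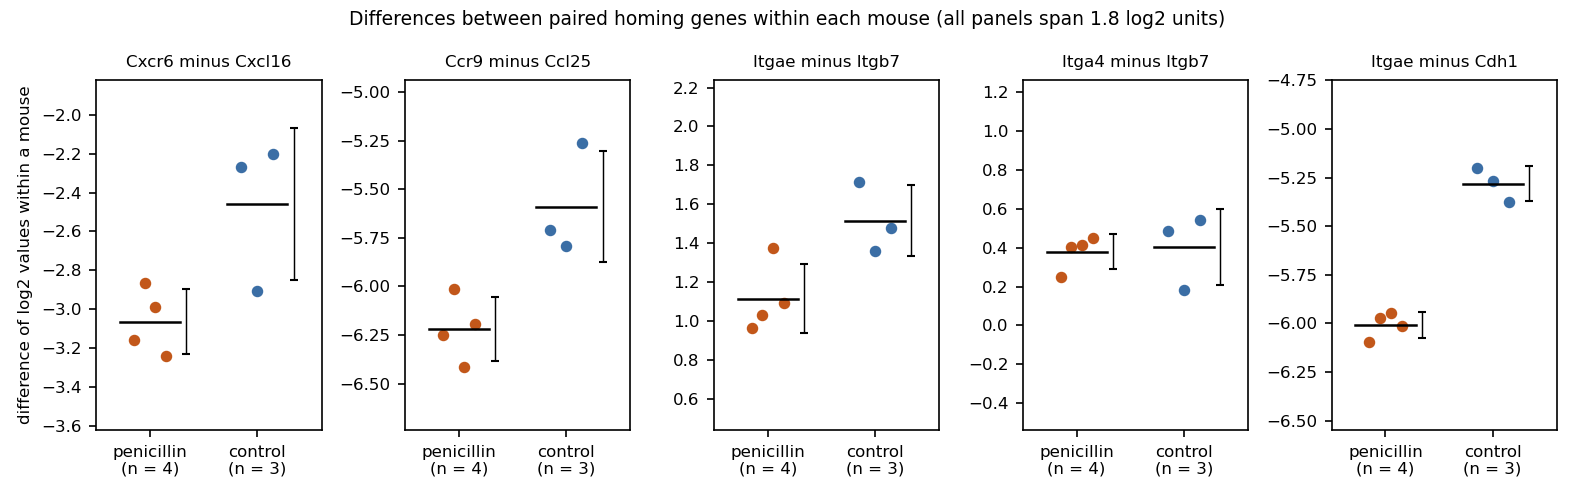
Difference of log2 values between the 2 genes of a pair within each mouse, 1 point per mouse, with penicillin mice (n = 4) left of control mice (n = 3); bars are means and error bars SD. The groups are apart for Ccr9 minus Ccl25 and for Itgae minus Cdh1 and overlap for the other 3 pairs.

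Other genes of lymphocyte homing came from lists written for this report. At an unadjusted p under 0.05 in limma, 6.35% of all genes tested were lower and 4.37% higher. These shares stand beside the counts of each list below. Of 20 other homing receptors and integrins 14 were tested, and 0 passed over all genes in limma, while 6 had an unadjusted p under 0.05, all lower. Their median change was -0.11, and 13 of the 14 had lower values. Selplg, the selectin ligand of leukocytes, differed by -0.43 ± 0.072 and Itgal, a chain of the integrin LFA-1, by -0.39 ± 0.066 (SE, adjusted p = 0.108 for each in limma). Of 20 other chemokine ligands 13 were tested, and 0 passed in limma, with 2 lower and 1 higher at an unadjusted p under 0.05 and a median of -0.01. Ccl28, an epithelial chemokine that draws IgA-producing cells, differed by -0.50 ± 0.10, and Ccl8 by -0.75 ± 0.15 (SE), both without overlap.

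Of the ligands of the member integrins, Cdh1 and Madcam1 had higher values in penicillin mice and Vcam1 had lower ones, and none of them passed. Cdh1 was at 13.0 ± 0.025 (SD) in penicillin mice and 12.9 ± 0.014 (SD) in control mice, a change of 0.08 ± 0.045 (SE, adjusted p = 0.536 in limma) without overlap. Madcam1 had a change of 0.12 ± 0.061 (SE, adjusted p = 0.521 in limma). In the list of adhesion partners, chemokine scavengers and proteases that act on chemokines, 0 of 11 passed in limma, and 3 had an unadjusted p under 0.05, all lower. Vcam1, an endothelial ligand of the alpha4 chain, had a change of -0.61 ± 0.17 (SE), and Icam1, a ligand of LFA-1, one of -0.35 ± 0.11 (SE).

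Of 18 genes whose products are known to induce members of the system 14 were tested, and 0 passed in limma, with 2 lower and 2 higher at an unadjusted p under 0.05. Irf1, an interferon-induced transcription factor, differed by -0.51 ± 0.11 and Il15ra, which presents the survival cytokine of intraepithelial lymphocytes, by -0.30 ± 0.082 (SE), both without overlap. Il15, that cytokine, was higher by 0.31 ± 0.13, and Aldh1a1, an enzyme that makes retinoic acid, by 0.42 ± 0.18 (SE), both with overlapping groups. The median of this list was 0.05, with 11 of 14 members at higher values.

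**Figure D4:**
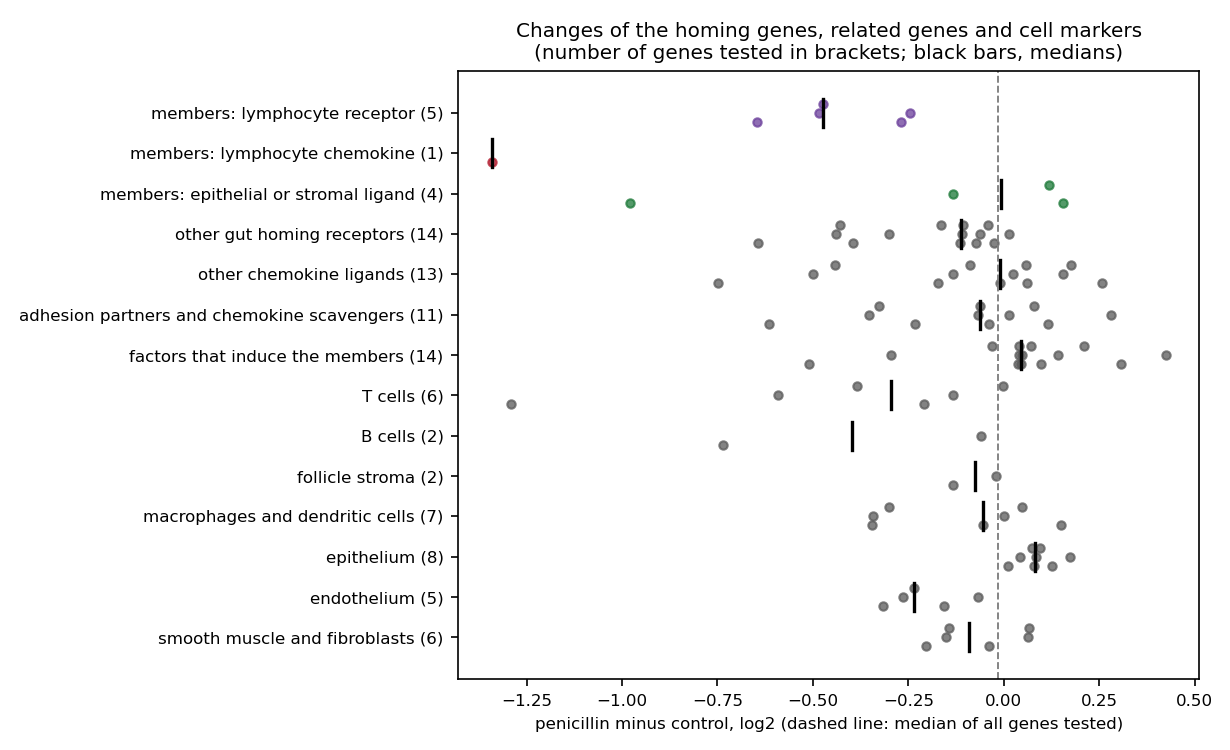
Change of each gene, penicillin minus control on the log2 scale, for the 3 roles among the 10 homing genes, for lists of related genes and for cell markers; each point is a gene, black bars are medians and the dashed line is the median of all genes tested, -0.01. The receptors have a median of -0.47, T cell markers one of -0.30 and epithelial markers one of 0.08.

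Of 11 T cell markers 6 were tested, and 0 passed over all genes in limma. At an unadjusted p under 0.05 there were 3, all lower, where 6.35% of all genes were lower. All 6 had lower values, from -1.29 for Cd3g to -9.4e-04 for Cd4, with a median of -0.30. Cd3g and Cd3d, chains of the T cell receptor complex, differed by -1.29 ± 0.22 and -0.59 ± 0.12 (SE). The mean level of the 6 markers lay between log2 5.90 and 6.21 in penicillin mice and between 6.40 and 6.58 in control mice. The part of T cell number in the lower values of the members was not tested.

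Other cell types were followed in the same way. B cell markers could be read in 2 of 7 genes, Cd79b and Cd22, at -0.74 ± 0.19 and -0.06 ± 0.10 (SE). Among 7 markers of macrophages and dendritic cells, which make Cxcl9, 4 had lower values, 0 passed in limma, with 2 lower at an unadjusted p under 0.05, and the median was -0.05. Itgax was at -0.30 ± 0.083, Csf1r at -0.34 ± 0.12 and Zbtb46, a dendritic cell factor, at 0.15 ± 0.065 (SE). Zbtb46 lay near the filter level, at a mean of log2 4.67. The mean level of those 7 lay between log2 6.89 and 7.13 in penicillin mice and between 7.06 and 7.32 in control mice, with control replicate 3 the highest: centred on the mean of the 7 mice it was at 0.23, and control replicates 1 and 2 at -0.03 and 0.01. The 8 epithelial markers all had higher values in penicillin mice, with a median of 0.08 and 0 past the threshold in limma, and none had an unadjusted p under 0.05. The 5 endothelial markers all had lower values, with a median of -0.24, and the 6 of muscle and fibroblasts a median of -0.09. In 2 genes of follicle stroma the median was -0.08, and in 5 colon genes it was -0.53. The colon genes, centred on the mean of the 7 mice, averaged 2.201 in control replicate 3 and -0.48 in each of control replicates 1 and 2. In penicillin mice they ranged from -0.76 to 0.36, so only control replicate 3 lay above all of them. The part of these cell types in the members' values was not tested.

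**Figure D5:**
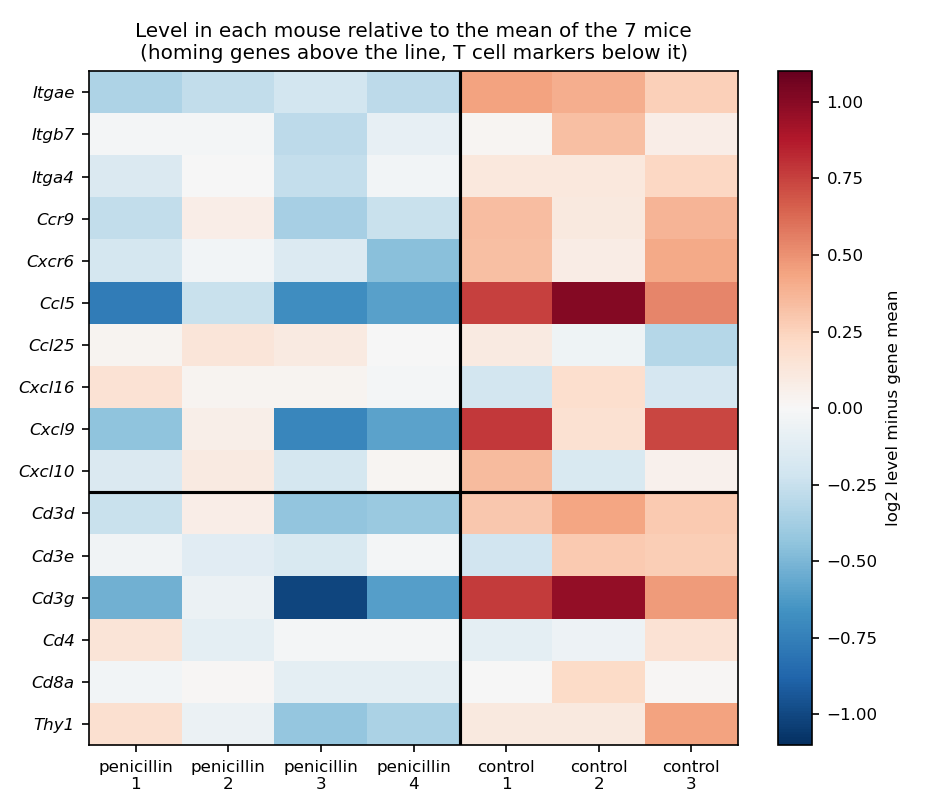
Log2 level of each gene in each mouse minus its mean over the 7 mice (colour scale), for the 10 homing genes above the line and 6 T cell markers below it, with the 4 penicillin mice left of the 3 control mice. Ccl5 and Cd3g show the widest contrast between the groups, and penicillin replicate 2 is the palest of the penicillin mice for Ccl5, Cxcl9 and Cd3g.

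The members also varied within the groups. Averaged over the 5 receptor genes and centred on the mean of the 7 mice, penicillin replicate 2 was at -0.05, against -0.20, -0.26 and -0.22 in penicillin replicates 1, 3 and 4. Control mice were at 0.25, 0.21 and 0.27 on the same scale, so control replicate 3 did not stand apart here. Penicillin replicate 2 was also the highest of its group for Itga4, Ccr9, Cxcr6, Ccl5, Ccl25, Cxcl9 and Cxcl10.

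The genes most like the called members over the 7 mice were found by the root mean square difference of values centred on each gene's mean. Closest to Itgae were Zc3h12a, which encodes an RNase that degrades inflammatory transcripts, at 0.060, and Gm1976 at 0.076. Closest to Ccl5 were the MHC class II chains H2-Ab1 at 0.086 and H2-Eb1 at 0.13. H2-Ab1 and H2-Eb1 passed over all genes, with changes of -1.37 ± 0.17 and -1.21 ± 0.12 (SE, adjusted p = 0.0481 and 0.0232 in limma). Zc3h12a and Gm1976 did not pass, with changes of -0.64 and -0.55. Among the members themselves the closest profiles were those of Itga4 and Itgb7, at 0.12, and of Ccr9 and Cxcr6, at 0.13. Genes outside the members were closer still. Sema4d was at 0.027 from Itga4, Etv6 at 0.039 from Itgb7, Fam189b at 0.050 from Ccr9 and Cntn1 at 0.099 from Cxcr6. Genes with small changes score as close on this measure, so the member pairs are not marked out by it.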

How the data were processed

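Per the submitters' processing notes, which name RMA and affy, the authors deposited 1 log2 value per probe set and array. RMA corrects background, equalises arrays and summarises probes. No version or genome build was given in the sources used here. Of 45101 probe sets 34945 had 1 gene in the platform annotation of the array, 932 had several, 9160 had none and 64 were controls. A gene with several probe sets was read from the brightest one, by the mean of the 7 arrays, and genes whose mean did not exceed the 25th percentile (log2 4.59) were not tested. The test was limma 3.58.1, run in R 4.3.3 (lmFit, eBayes, no trend), two-sided, with Benjamini-Hochberg adjustment over 13644 genes and a threshold of 0.05. The fit was tested on simulated data. Differences between paired genes were tested by exact permutation of the arrays. The members and gene lists were chosen with earlier results of these data known. The text names every member, up to 2 genes of a list by the size of the moderated statistic, and the 2 genes nearest each called member. It also names the gene nearest Itga4, Itgb7, Ccr9 and Cxcr6. Cxcr3, Cxcl11, Ifng, Il15, Aldh1a1, Zbtb46 and Cd4 were named after their values were seen. Alternatives were 2 further normalizations, other filters, averaged or unsummarised probe sets, other variance models, the replicate number as a block and leaving out arrays. Figures were drawn with matplotlib 3.10.9. The number of arrays limits the precision of each value.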

Additional observations from a re-analysis of the deposited data

How the results depend on the processing

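The call of Itgae and Ccl5, 2 members in all, held under both renormalizations, both filters, averaged probe sets, every probe set fitted, an intensity trend and a threshold of 0.1. It did not hold when mice were left out, where 0 to 1 members and 0 to 15 genes were called in limma, with 989 to 1985 genes at an unadjusted p under 0.05. Over all genes 13 were called, against 7 with averaged probe sets, 774 with array quality weights and 40 at a threshold of 0.1. Array quality weights called 5 members, adding Ccr9, Cxcr6 and Cxcl9. Without control replicate 3 and penicillin replicate 3 together 2 genes and 0 members were called in limma. At an unadjusted p under 0.05 there were then 1440 of 13644 genes, 893 lower and 547 higher, with 6 members among them. The replicate numbers were read as arbitrary. Deviations from the group means correlated at -0.16, 0.00297 and -0.42 for numbers 1, 2 and 3. These values cannot show whether mice of the same number shared a cage or litter. With the replicate number as a block, 0 genes and 0 members were called in limma, with 802 genes at an unadjusted p under 0.05, and 6 members among them. At the 50th percentile filter 5 members were tested, without Itgb7, Itga4, Ccr9, Cxcr6 and Cxcl10. With averaged probe sets 9 were tested, without Itga4. Members without overlap numbered 6 with averaged probe sets, and the share over all genes in that setting is not given here.

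With averaged probe sets the pair differences were -0.37 for Ccr9 minus Ccl25, -0.40 for Itgae minus Itgb7 and -0.73 for Itgae minus Cdh1. Each had an adjusted exact permutation p of 0.0476, which rests on how many pairs reached the smallest p. The change of Ccr9 itself was then -0.17 and that of Ccl25 0.19. Itga4 minus Itgb7 turned to 0.11 with averaged probe sets and to 0.033 without both replicates numbered 3, and ran from -0.14 to 0.045 when single mice were left out. Cxcl10 ran from -0.25 to 3.2e-05 when single mice were left out. No other member changed sign in any setting, and the causes were not tested.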
